A study of Arabidopsis thaliana with 5 samples.

Results

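The 9 genes described here act where the embryo of the Arabidopsis seed meets the endosperm, the nutritive tissue that surrounds it. They were chosen by gene identifier from the 37336 genes of the table, all 9 were present and all 9 had enough counts to be tested. RNA from developing seeds, labelled 9 days after pollination, was sequenced in 3 libraries of the mutant dof4.1-3 and 2 libraries of the wild type Col-0, the accession in which the mutant was made. The paper gives the same age in its methods and a slightly later one in its results. The mutant, written dof4-1 in the labels, is a single T-DNA insertion line with the insertion in the second exon of DOF4.1 (AT4G00940), a Dof-type transcription factor gene, and it differs from Col-0 by no other named allele or treatment. The labels and methods do not say whether the replicates came from separate plants, so p-values measure the spread between these libraries only, and that spread may be technical.

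As the seed fills, the endosperm around the growing embryo is broken down while the embryo builds a cuticle, a lipid layer that seals its surface. ZHOUPI (ZOU) is a basic helix-loop-helix (bHLH) transcription factor of the endosperm that pairs with the bHLH protein ICE1, and both are needed for this breakdown and for normal expression of ALE1 and KRS. KERBEROS (KRS) is a small secreted cysteine-rich peptide needed for the embryo to separate from the endosperm. ABNORMAL LEAF SHAPE 1 (ALE1) is a subtilisin-like protease made in the endosperm. TWISTED SEED 1 (TWS1) is a precursor made in the embryo, which ALE1 cleaves to release a sulfated peptide. The peptide is perceived by the leucine-rich repeat receptor kinases GASSHO1 and GASSHO2 (GSO1 and GSO2) on the embryo surface, so that gaps in the cuticle are sensed. ACR4 and ALE2 are further receptor kinases that act in epidermis formation.

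The genes lie apart in the TAIR10.1 assembly, and ZOU, ALE1 and KRS are all on chromosome 1. ZOU (AT1G49770) runs from 18424578 to 18426782 on the plus strand, KRS (AT1G50650) from 18763640 to 18764367 on the minus strand and ALE1 (AT1G62340) from 23051002 to 23055672 on the minus strand. ICE1 (AT3G26744) is on chromosome 3 from 9832667 to 9835279, and ACR4 (AT3G59420) is on the same chromosome from 21959646 to 21963180. TWS1 (AT5G01075), which RefSeq names only as a glycosyl hydrolase family 35 protein, spans 26848 to 27504 on chromosome 5, and GSO2 (AT5G44700) spans 18032864 to 18037323 on it. GSO1 (AT4G20140) is on chromosome 4 from 10883921 to 10888270 and ALE2 (AT2G20300) on chromosome 2 from 8755852 to 8760298. GSO1 alone overlaps another annotated gene. It shares 337 of its 4274 exon bases with AT4G20150 on the opposite strand, and since counting ignored strand, reads from that stretch cannot be told apart. Reads that were ambiguous between genes, 3.09% to 3.92% of the counts of a library, were given to no gene. The overlap may therefore take reads from GSO1. GSO1 and GSO2 are related copies, and the split of any reads they share is uncertain.

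Since bHLH proteins bind the E-box (CANNTG) and Dof proteins the core AAAG, both were sought from 250 bases before to 50 bases after each gene's RefSeq start. CANNTG reads the same on both strands, AAAG was sought on both strands as AAAG or CTTT, and matches of one may overlap matches of the other. E-box letters occurred in 6 of the 9 windows, against 62.1% of the windows of 18875 tested genes, and were not found in those of ZOU, ICE1 and ALE2. The sites before ALE1, KRS and TWS1, the genes of the protease, the small peptide and the peptide precursor, are shown with the 6 E-box letters in capitals, 5′ to 3′ on the strand of the gene. They come from the RefSeq TAIR10.1 sequence, and the ALE1 stretch stops at the gene's start.
ALE1, chr1:23055673-23055695, minus strand: tcttcattaacgCAAATGgagaa
KRS, chr1:18764562-18764591, minus strand: caactacattgcCATGTGatacccttttct
TWS1, chr5:27723-27752, minus strand: gagaattcaggaCACGTGgcttacaagaaa
TWS1, chr5:27543-27572, minus strand: gatccaaaacccCACATGgccttatttccc

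The Dof core was found in 99.2% of the windows of tested genes, with a median of 5 matches, and in all 9 windows here. ZOU had the most of the 9, with 12 matches, a number reached by 178 (0.943%) of the 18875 windows. The other 8 genes had between 4 and 7. RefSeq places the start of ZOU at its start codon, so its window is not counted from a mapped transcript end. The 30 bases with the most matches before ZOU, singled out after the counts were seen, are shown with the matches in capitals.
ZOU, chr1:18424328-18424357, plus strand: cttcatgAAAGAAAGAAAGaAAAGtaacca
A match describes letters in the sequence and is not a binding site or a cause of any level reported here.

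The libraries held 20101091, 21722055 and 21053818 counts over genes in dof4.1-3 replicates 1, 2 and 3, and 16500028 and 17049283 in Col-0 replicates 1 and 2. DOF4.1 itself had 3, 4 and 4 counts in dof4.1-3 and 1 and 14 in Col-0, so few that the labels could not be checked with it. Of the seed coat markers, all 5 that were tested lay lower in every dof4.1-3 library than in Col-0, as did 18.3% of all tested genes. The list summed to 1028 to 1141 CPM (TMM-normalized CPM, the gene counts scaled to a common library size) in dof4.1-3 and 1581 to 1871 in Col-0. BAN, a proanthocyanidin gene, passed the test (log2 fold change -1.85, adjusted p = 0.0105 by edgeR), where 0.963% of all tested genes were called lower. DESeq2 called 3 of these markers lower, BAN, TT10 (adjusted p = 0.0208) and MUM4 (0.0312), and 2.96% of all genes lower. Embryo markers summed to 220 to 241 CPM in dof4.1-3 and 162 to 204 in Col-0, mostly from ABI3 and FUS3, while 3 of the 5 (LEC1, LEC2 and WOX2) had negative log2 fold changes and LEC1 passed the test. Of 8 endosperm markers, 5 were under 1 CPM in every library (AGL62, PHE1, MINI3, IKU2 and FWA), so that SUC5, a sucrose transporter gene, made up most of the sum of 41.2 to 103 CPM in dof4.1-3 and 95.03 to 110 in Col-0. Silique wall markers summed to 10.3 to 17.6 CPM in dof4.1-3 and 23.5 to 24.3 in Col-0, mostly from FUL. ALC was under 1 CPM in every library, and IND overlapped between genotypes. The part of these markers in the results below was not tested. In whole seeds, fewer cells of a type and less RNA per cell cannot be told apart.

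Transcripts of the endosperm regulator ZOU and of the endosperm genes KRS and ALE1 were lower in all 3 dof4.1-3 libraries than in either of Col-0, those of the receptor genes GSO1, GSO2 and ACR4 were higher in all 3, and those of ICE1, TWS1 and ALE2 overlapped between genotypes. None of the 9 genes passed edgeR's quasi-likelihood test at an adjusted p under 0.05, a threshold that 0.963% of the 19003 tested genes passed as lower and 0.121% as higher in dof4.1-3. At an unadjusted p under 0.05 there were 3 lower (ZOU, KRS and ALE1) and 2 higher (GSO1 and GSO2), where 9.52% and 6.33% of all tested genes were lower and higher. Limma-voom also called 0 of the 9, with 1.08% of all genes called lower and 0.174% higher. DESeq2 called ZOU, KRS and ALE1 lower and none of the 9 higher, with 2.96% of 19938 genes called lower and 1.22% higher. Complete separation of the groups was common across the genome, with 18.3% of tested genes lower and 16.3% higher in every dof4.1-3 library, so 3 of 9 in each direction is to be read against those shares. The median log2 fold change of the 9 genes was 0.17, and that of all tested genes 0.03.

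**Figure D1:**
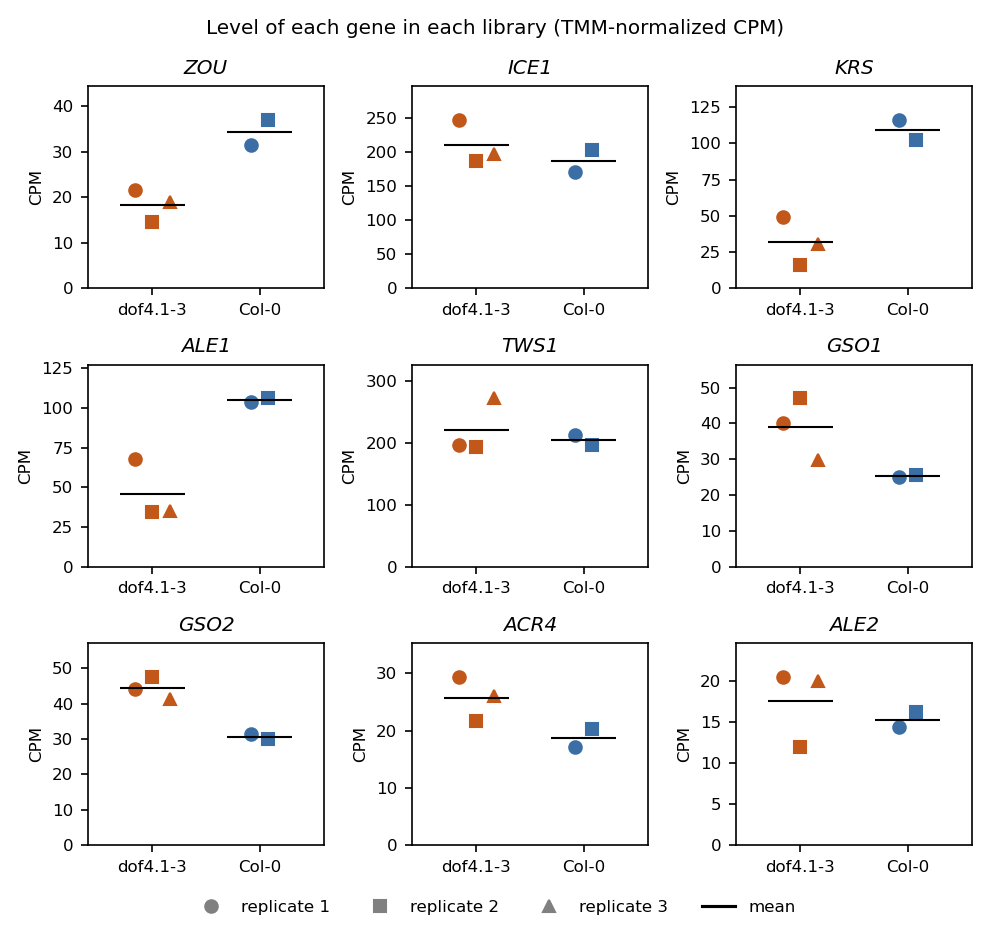
TMM-normalized CPM of the 9 genes (one panel each, vertical axes from 0) in 3 dof4.1-3 libraries (left) and 2 Col-0 libraries (right). Symbols mark the replicate number and lines the mean of a genotype. ZOU, KRS and ALE1 lie lower in all dof4.1-3 libraries, with 15.7 to 48.9 CPM of KRS against 102 and 116 in Col-0, and GSO1, GSO2 and ACR4 lie higher in all of them.

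ZOU, the bHLH gene of the endosperm, had 21.5, 14.5 and 18.9 CPM in dof4.1-3 replicates 1, 2 and 3, against 31.6 and 37.1 CPM in Col-0 replicates 1 and 2. TMM corrects the library sizes for differences in composition. Replicate 2 was the lowest of the dof4.1-3 libraries, and the highest of them stayed below both of Col-0. The means were 18.3 ± 3.55 CPM in dof4.1-3 (SD, n = 3) and 34.3 ± 3.898 CPM in Col-0 (SD, n = 2), 1.88-fold lower in dof4.1-3. The log2 fold change was -0.91 (standard error 0.21, 95% interval -1.39 to -0.43), with an adjusted p of 0.0851 from edgeR and 0.0179 from DESeq2.

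ICE1, its bHLH partner, which also acts in stomatal development and cold response, was expressed in both genotypes at levels above those of ZOU. It had 247, 187 and 196 CPM in dof4.1-3, against 169.5 and 203 CPM in Col-0, and the groups overlapped. Its log2 fold change was 0.17 (95% interval -0.32 to 0.67, adjusted p = 0.738 by edgeR). Within each library there were 0.0871, 0.0775 and 0.0963 ZOU counts per ICE1 count in dof4.1-3, against 0.186 and 0.183 in Col-0. This ratio, which does not depend on how the libraries were scaled, was lower in all 3 dof4.1-3 libraries, with an exact permutation p of 0.1 (two-sided), the smallest that 3 libraries against 2 can give.

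KRS, the small cysteine-rich peptide gene, had the largest difference of the 9. It was at 48.9, 15.7 and 30.5 CPM in dof4.1-3, against 116 and 102 CPM in Col-0. All 3 mutant libraries were below both of Col-0, and they also differed 3.11-fold among themselves, with replicate 2 again the lowest. The means were 31.7 ± 16.6 CPM in dof4.1-3 (SD, n = 3) and 109 ± 10.2 CPM in Col-0 (SD, n = 2), 3.44-fold lower in dof4.1-3. The log2 fold change was -1.78 (standard error 0.40, 95% interval -2.69 to -0.87), and the adjusted p was 0.0875 from edgeR and 0.000369 from DESeq2. Among all tested genes, 1.34% had a lower log2 fold change. The other 5 genes that RefSeq names as Stig1 family proteins, the family of KRS, were at 0 counts in all 5 libraries, which allows up to 3 counts in each.

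ALE1, the endosperm protease gene, had 67.9, 34.5 and 35.0 CPM in dof4.1-3, against 104 and 106 CPM in Col-0. The Col-0 libraries were nearly equal, while dof4.1-3 replicate 1 was well above replicates 2 and 3. The means were 45.8 ± 19.1 CPM in dof4.1-3 (SD, n = 3) and 105 ± 1.59 CPM in Col-0 (SD, n = 2), 2.29-fold lower in dof4.1-3. The log2 fold change was -1.20 (standard error 0.29, 95% interval -1.86 to -0.53), and the adjusted p was 0.0940 from edgeR and 0.00796 from DESeq2.

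For these 3 genes the call depended on the libraries kept. Without dof4.1-3 replicate 1, the mutant library with the highest level of each, edgeR called all 3, with log2 fold changes of -1.04 for ZOU (adjusted p = 0.0454), -2.24 for KRS and -1.59 for ALE1 (adjusted p = 0.00408 for both). Without dof4.1-3 replicate 2, the lowest for each, it called KRS alone (-1.45, adjusted p = 0.00786), with -0.76 for ZOU (0.0511) and -1.03 for ALE1 (0.0620). Calls over all tested genes moved as well. EdgeR called 183 genes lower with all 5 libraries, 338 without dof4.1-3 replicate 1, 707 without replicate 2 and 51 without replicate 3. No gene of the 9 was called without dof4.1-3 replicate 3 or without a Col-0 library, where a single wild-type library is taken to vary as the mutant does. SUC5, the abundant endosperm marker, was also lowest in dof4.1-3 replicate 2 (83.0, 37.6 and 98.0 CPM in dof4.1-3, against 90.5 and 103 CPM in Col-0), and its groups overlapped (log2 fold change -0.41, adjusted p = 0.602 by edgeR). The other tested endosperm markers overlapped too. EDE1 had 4.55, 3.25 and 4.05 CPM in dof4.1-3, against 3.27 and 4.31 CPM in Col-0 (log2 fold change 0.06), and AGL62 was under 1 CPM (-0.94). FIS2, FWA, PHE1, MINI3 and IKU2 had too few counts to be tested. FIS2 had 5, 1 and 4 counts in dof4.1-3, against 7 and 26 in Col-0, and FWA had 2, 3 and 5 against 6 and 11. Both were lower in every dof4.1-3 library in CPM, as were 18.3% of all tested genes. PHE1 had 0, 1 and 0 counts against 1 and 3, too few to order the libraries. MINI3 had 1 count, in dof4.1-3 replicate 2, and IKU2 had 1 count, in Col-0 replicate 2.

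**Figure D2:**
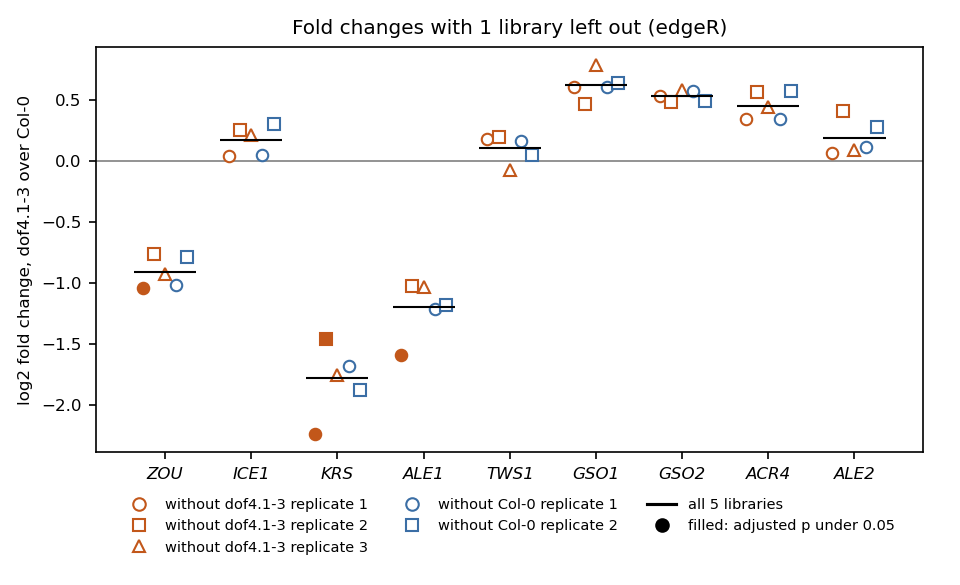
Log2 fold changes (vertical axis, dof4.1-3 over Col-0) of the 9 genes from edgeR with 1 library left out, by colour and symbol. Black lines give the value with all 5 libraries and filled symbols an adjusted p under 0.05. ZOU, KRS and ALE1 stay negative in all 5 fits, between -2.24 and -0.76, and TWS1 turns to -0.07 without dof4.1-3 replicate 3.

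ALE1 and KRS were also set against ZOU within the same library. There were 3.16, 2.38 and 1.85 ALE1 counts per ZOU count in dof4.1-3, against 3.29 and 2.86 in Col-0, and the groups overlapped. KRS had 2.28, 1.09 and 1.61 counts per ZOU count in dof4.1-3, against 3.69 and 2.75 in Col-0, lower in all 3 mutant libraries (exact permutation p = 0.2, two-sided). Both are among 10 ratios that were computed, whose Benjamini-Hochberg adjusted exact permutation p values ran from 0.286 to 0.8, and no ratio could reach 0.05 in this design. KRS had 0.721, 0.456 and 0.870 counts per ALE1 count in dof4.1-3, against 1.12 and 0.961 in Col-0, again lower in all 3 mutant libraries (exact permutation p = 0.2, two-sided). This ratio was not corrected for the trend over transcript length described below. With that trend removed, the log2 fold changes of KRS and ALE1 were nearly equal (-1.41 and -1.40 by edgeR).

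TWS1, the peptide precursor gene, had the highest level per kilobase of the 9, and its groups overlapped, while those of the protease that acts on it were apart. It had 196, 193 and 271.5 CPM in dof4.1-3, against 213 and 196 CPM in Col-0. Replicate 3 of dof4.1-3 was above the other 4 libraries, which lay close together. The log2 fold change was 0.11 (95% interval -0.41 to 0.62, adjusted p = 0.856 by edgeR), which leaves room for a modest difference either way. There were 0.347, 0.179 and 0.129 ALE1 counts per TWS1 count in dof4.1-3, against 0.489 and 0.541 in Col-0, a ratio lower in all 3 mutant libraries (exact permutation p = 0.2, two-sided).

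GSO1, one of the receptors of the peptide, also known for its part in the Casparian strip of roots, had 40.1, 47.0 and 29.8 CPM in dof4.1-3, against 24.9 and 25.6 CPM in Col-0. All 3 mutant libraries were above both of Col-0. The means were 39.0 ± 8.63 CPM in dof4.1-3 (SD, n = 3) and 25.3 ± 0.503 CPM in Col-0 (SD, n = 2), and the log2 fold change was 0.63 (standard error 0.23, 95% interval 0.12 to 1.13, adjusted p = 0.218 by edgeR). GSO2, the second receptor, had 44.3, 47.6 and 41.5 CPM in dof4.1-3, against 31.5 and 29.9 CPM in Col-0. Its groups were apart as well, and its mutant libraries were the most alike of any of the 9 genes, with a 1.15-fold range. The log2 fold change of GSO2 was 0.53 (standard error 0.18, 95% interval 0.13 to 0.94, adjusted p = 0.196 by edgeR). There were 0.906, 0.987 and 0.720 GSO1 counts per GSO2 count in dof4.1-3, against 0.791 and 0.856 in Col-0, so the balance of the receptors overlapped between genotypes. Set against the protease, there were 1.69, 0.734 and 1.17 ALE1 counts per GSO1 count in dof4.1-3, against 4.17 and 4.15 in Col-0. ALE1 was lower and GSO1 higher in every mutant library, so this ratio had to be lower in all of them. Its exact permutation p (0.1, two-sided, the smallest possible) restates those differences and adds no support.

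ACR4, the receptor kinase of the epidermis related to maize CRINKLY4, had 29.4, 21.6 and 26.1 CPM in dof4.1-3, against 17.2 and 20.3 CPM in Col-0. The groups were apart by a small margin, between replicate 2 of each genotype. Its log2 fold change was 0.45 (standard error 0.21, 95% interval -0.01 to 0.92, adjusted p = 0.330 by edgeR). ALE2, which acts with ACR4 in the epidermis, had 20.5, 11.98 and 20.0 CPM in dof4.1-3, against 14.4 and 16.2 CPM in Col-0. Replicate 2 of dof4.1-3 was the lowest of the 5 libraries and the other mutant libraries the highest, so the groups overlapped (log2 fold change 0.20, 95% interval -0.38 to 0.77, adjusted p = 0.746 by edgeR). There were 1.43, 1.81 and 1.30 ACR4 counts per ALE2 count in dof4.1-3, against 1.19 and 1.26 in Col-0, higher in all 3 mutant libraries (exact permutation p = 0.2, two-sided).

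**Figure D3:**
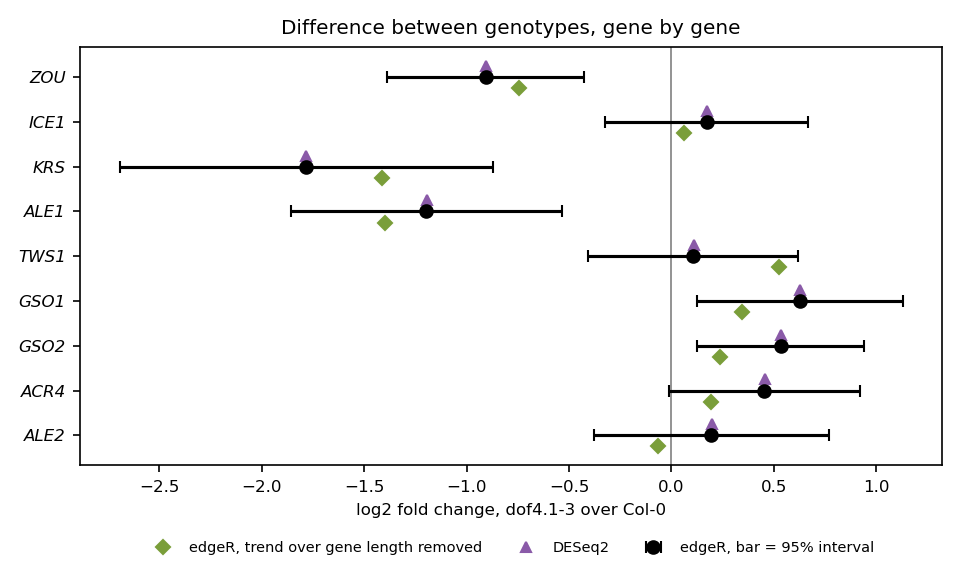
Log2 fold changes (horizontal axis, dof4.1-3 over Col-0) of the 9 genes. Black points and bars give edgeR's estimate and 95% interval, triangles DESeq2 and diamonds edgeR after a trend over gene length was removed. The intervals of ZOU, KRS and ALE1 lie below 0 and those of GSO1 and GSO2 above it, before adjustment over all genes.

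Fold changes across the genome followed transcript length, from a median of -0.30 in the shortest of 10 equal length classes, which holds KRS (728 bases) and TWS1 (574 bases), to 0.29 in the longest, which holds GSO1, GSO2, ACR4 and ALE2 (3311 to 4373 bases). With that trend removed from each library, the log2 fold changes were -0.75 for ZOU (adjusted p = 0.175), -1.41 for KRS (0.263) and -1.40 for ALE1 (0.0703) by edgeR, so that ALE1, in the ninth class with 2636 bases, was then further from 0. Those of the receptor genes were closer to 0, with 0.34 for GSO1, 0.24 for GSO2, 0.19 for ACR4 and -0.07 for ALE2, and that of TWS1 was 0.52 (adjusted p = 0.391). None of the 9 was called in that fit, in which 0.232% of all tested genes were lower and 0.0526% higher. The count ratios given above were not corrected for this trend, which enters wherever the lengths of the genes differ. For ZOU over ICE1, the median log2 fold change was -0.11 in the length class of ZOU and 0.14 in that of ICE1. For KRS over ALE1, it was -0.30 in the length class of KRS and 0.22 in that of ALE1.

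Per kilobase of transcript, a scale on which genes can be compared, TWS1 was first in both genotypes, with 383 ± 77.8 CPM per kilobase in dof4.1-3 (SD, n = 3) and 356 ± 20.1 in Col-0 (SD, n = 2), above 98.8% of tested genes. KRS was the second in Col-0 with 150 ± 14.0, above ICE1 with 83.2 ± 10.6. In dof4.1-3 that order was turned, with 93.8 ± 14.4 for ICE1 and 43.6 ± 22.9 for KRS. ALE1 and ZOU followed with 17.4 ± 7.26 and 15.5 ± 3.01 in dof4.1-3, where they overlapped each other and ALE1 also overlapped KRS, and with 39.8 ± 0.604 and 29.1 ± 3.31 in Col-0, where they were apart. The receptor kinases were the lowest in both genotypes, from 10.2 ± 0.701 for GSO2 to 5.29 ± 1.45 for ALE2 in dof4.1-3, and from 7.02 ± 0.255 for GSO2 to 4.62 ± 0.371 for ALE2 in Col-0. GSO1, GSO2 and ACR4 each overlapped the next in the order in dof4.1-3, and in Col-0 only ACR4 and ALE2 did.

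**Figure D4:**
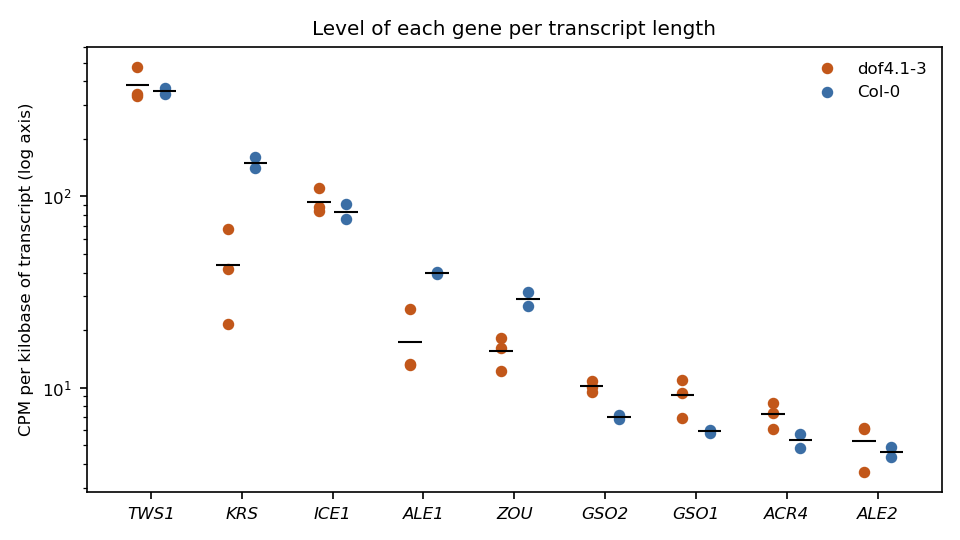
Level of each gene in CPM per kilobase of its longest transcript (vertical log axis) in dof4.1-3 (left of each pair) and Col-0 (right of each pair). Points are libraries and lines means. TWS1 is highest in both genotypes, and KRS, ALE1 and ZOU are the genes whose dof4.1-3 points lie below those of Col-0.

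The 5 tested genes whose log2 CPM over the 5 libraries, each centred on its mean, lay closest to that of ZOU were MYB56, AT1G65370 (a TRAF-like family protein), AT3G62320, bZIP70 and MYB118, with root mean square distances of 0.04 to 0.06 on the log2 scale among 19002 genes. MYB56 had 30.5, 22.0 and 27.9 CPM in dof4.1-3, against 44.7 and 53.6 CPM in Col-0 (log2 fold change -0.88, adjusted p = 0.0825 by edgeR). MYB118 had 41.6, 27.9 and 37.9 CPM in dof4.1-3, against 56.3 and 75.0 CPM in Col-0 (log2 fold change -0.88, adjusted p = 0.103 by edgeR). AT3G62320 was under 1 CPM in all libraries, so its likeness rests on few counts. Of the other genes described here, ALE1 was the closest to ZOU (distance 0.30, rank 890) and GSO1 the farthest (0.82, rank 17009). KRS, also lower in every dof4.1-3 library, was at a distance of 0.61 (rank 11590). That was farther from ZOU than ALE2 (rank 8177), ICE1 (8293) and TWS1 (8818), whose groups overlapped. These likenesses are descriptions over 5 libraries, and all genes share the difference in depth between the genotypes. The 5 genes were chosen by their likeness to ZOU, so fold changes near that of ZOU follow from the choice.

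Of the genes known to work with these 9, in 5 lists with 33 tested genes, edgeR and limma-voom called none at an adjusted p under 0.05. At an unadjusted p under 0.05 from edgeR there were 4 higher (MUTE, PDF2, CYP86A8 and GPAT4) and 2 lower (SBT5.4 and AT4G34600) of the 33, where 6.33% and 9.52% of all tested genes were higher and lower. DESeq2 called 1 of them lower, SBT5.4, and 2.96% of all genes lower. Of 15 partners of the peptide and its receptors, including the sulfotransferase TPST, the co-receptor kinases BAK1, SERK1 and SERK2 and the kinases MKK4, MKK5, MPK3 and MPK6, 11 were tested, 7 with positive and 4 with negative log2 fold changes (median 0.05). SBT5.4, a subtilase gene, had 20.3, 21.7 and 26.1 CPM in dof4.1-3, against 41.2 and 34.8 CPM in Col-0, and its log2 fold change of -0.74 (standard error 0.20) had an adjusted p of 0.108 by edgeR and 0.0477 by DESeq2. AT4G34600 had 34, 67 and 24 counts in dof4.1-3, against 80 and 81 counts in Col-0 (adjusted p = 0.284 by edgeR). The other 4 genes of the list were at 0 counts in all libraries, which allows up to 3 counts in each.

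All 4 bHLH genes related to ICE1 or paired with it in the stomatal lineage had positive log2 fold changes (median 0.45, and 0.39 with the length trend removed). Of all 19003 tested genes, 9992 had positive and 9011 negative values. MUTE, which ends the divisions of that lineage, had 6, 37 and 24 counts in dof4.1-3, against 1 and 4 counts in Col-0 (adjusted p = 0.166 by edgeR), and SPCH, which starts them, had 10.3, 6.94 and 9.19 CPM in dof4.1-3, against 5.92 and 6.46 CPM in Col-0 (log2 fold change 0.51, adjusted p = 0.363). The relatives of ACR4 were near the limit of detection, with CCR1 at 0.986 to 1.41 CPM in dof4.1-3 and 0.588 and 0.616 in Col-0 (adjusted p = 0.3598 by edgeR), and CCR3 at 1.19 to 2.14 CPM in dof4.1-3 and 0.801 and 1.27 in Col-0 (0.541).

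Of 7 regulators of epidermal identity, 6 had positive log2 fold changes (median 0.20), beside 9992 of all 19003 tested genes. PDF2, a homeodomain factor of the outermost cell layer, had 159, 126 and 168 CPM in dof4.1-3, against 95.5 and 109 CPM in Col-0 (log2 fold change 0.56, standard error 0.22, adjusted p = 0.247 by edgeR). DEK1, a calpain protease needed for epidermis, had 37.5, 15.0 and 27.5 CPM in dof4.1-3, against 14.5 and 19.7 CPM in Col-0, and overlapped (0.64, adjusted p = 0.414). Of 8 tested genes of cuticle synthesis and export, 6 had positive values (median 0.30). CYP86A8, a fatty acid hydroxylase, had 21.7, 20.2 and 21.3 CPM in dof4.1-3, against 14.3 and 15.8 CPM in Col-0 (0.49, standard error 0.19, adjusted p = 0.2503 by edgeR), and GPAT4, an acyltransferase of cutin synthesis, had 12.2, 28.1 and 13.5 CPM in dof4.1-3, against 10.6 and 9.45 CPM in Col-0 (0.84, adjusted p = 0.302). With the length trend removed the medians of the epidermis and cuticle lists were 0.22 and 0.07.

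**Figure D5:**
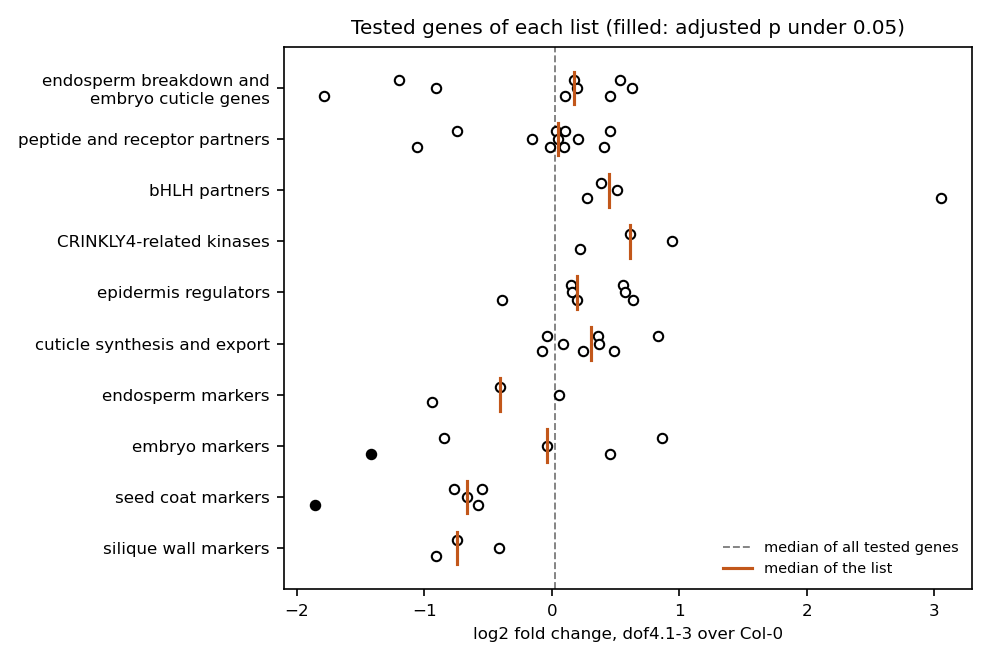
Log2 fold changes (horizontal axis, dof4.1-3 over Col-0) of the tested genes of each list. Circles are genes, filled where the adjusted p from edgeR is under 0.05, coloured bars the median of a list and the dashed line the median of all tested genes, 0.03. The filled points are LEC1 among embryo markers and BAN among seed coat markers.

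LEC1, a master regulator of embryo development, was the embryo marker that passed the test, with 19.0, 15.6 and 22.9 CPM in dof4.1-3, against 56.5 and 46.3 CPM in Col-0 (log2 fold change -1.42, standard error 0.21, adjusted p = 0.0209 by edgeR). LEC2 was also lower in all 3 dof4.1-3 libraries, with 2.64, 2.55 and 2.80 CPM in dof4.1-3, against 4.01 and 5.53 CPM in Col-0 (log2 fold change -0.84, adjusted p = 0.196 by edgeR), and WOX2 was under 1 CPM in all libraries (-0.04). FUS3 and ABI3 had positive log2 fold changes of 0.45 and 0.86 (adjusted p = 0.399 and 0.140 by edgeR), and DESeq2 called ABI3 higher (adjusted p = 0.0316). With the length trend removed LEC1 was not called (adjusted p = 0.0622) and BAN was (0.0255).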

How the data were processed

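The authors used cutadapt for trimming, FastQC for quality, HISAT2 for mapping to TAIR10 and htseq-count, without strand, for raw counts per gene. Versions were not given in the sources. The deposited counts cover 37336 genes. The table's 5 summary lines and 9 blank lines entered neither library sizes nor tests (3.82% to 5.66% of counts named no gene). Groups came from the labels.

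Counts were filtered by filterByExpr, scaled by TMM and fitted by edgeR 4.0.16 (quasi-likelihood F test, robust, genotype alone in the model, 3 residual degrees of freedom), with Benjamini-Hochberg adjustment over 19003 genes. Alternatives used DESeq2 1.42.0, limma-voom (limma 3.58.1) in R 4.3.3, RLE factors, scaling without the 50 most abundant genes, no filter, each library left out, the replicate number as a block, and a lowess trend (span 0.3) over RefSeq transcript length removed from each library. The length was known for 99.3% of tested genes. Duplicate libraries were not found (smallest chi-square per gene 36.8). Ratios were compared by exact permutation of libraries. The fits were tested on simulated data with known changes. EdgeR, DESeq2 and limma-voom each recovered 29% of genes changed by a log2 value of 1. At a log2 value of 2 they recovered 98%, 94% and 97%. Of their calls, 5.22%, 10.9% and 5.26% were false. The simulation gave every gene the same dispersion and held no length trend, so these rates need not hold for the measured libraries.

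The 9 genes and all lists were chosen with earlier results of these data known. Named genes are the 9, DOF4.1, called genes of each list of partner genes or else the 2 with the smallest p, and the 5 nearest profiles to ZOU. Of the marker lists, BAN and LEC1 were named because edgeR called them, and other markers were named after their values were seen. The silique wall markers are given as a sum, without the values of each gene. Coordinates and sequences are from RefSeq TAIR10.1, which held 37051 of the gene IDs. Protein sequences were not used here.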

Additional observations from a re-analysis of the deposited data

How the results depend on the processing

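Of the 9 genes, ZOU, KRS, ALE1, ICE1, GSO1, GSO2 and ACR4 kept their direction under all 13 alternatives. With 1 library left out, the log2 fold change of TWS1 ran from -0.0717 (without dof4.1-3 replicate 3) to 0.2007 (without dof4.1-3 replicate 2), and with the replicate block it was -0.0724. That of ALE2 was -0.0651 with the length trend removed and -0.22 with that and the block. Over all genes edgeR called 23 higher and 183 lower. DESeq2 called 244 and 590, the fit without a filter 170 and 565, that without the length trend 10 and 44, and that with replicate block and without the length trend 2 and 2. Leaving out 1 library gave 0 to 181 higher and 0 to 707 lower, with 162 and 338 without dof4.1-3 replicate 1, 181 and 707 without replicate 2, 4 and 51 without replicate 3, 1 and 2 without Col-0 replicate 1 and 0 and 0 without Col-0 replicate 2. Of the 9 genes, 0 were called lower with all libraries, 3 by DESeq2 (ZOU, KRS and ALE1), 2 without a filter (ZOU and ALE1), 1 with the replicate block (KRS, adjusted p = 0.00342) and 0 to 3 with 1 library left out; the cause was not tested. Of the lists of partner genes, 1 was called lower by DESeq2 (SBT5.4), and 0 to 1 higher and 0 to 1 lower with 1 library left out (MUTE and DEK1 higher, AT4G34600 lower). The replicate number pairs no material in the labels: deviations of same-numbered libraries correlated at -0.25 and -0.29, and the block left 29 higher and 175 lower. Low counts limit what can be said of the relatives of ACR4 and KRS and of DOF4.1.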
